A study of Mus musculus with 12 samples.

Results

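Club cells are the secretory cells that line the small airways of the mouse. They release secretoglobins, small dimeric proteins of the airway surface, together with antimicrobial proteins, and they detoxify inhaled compounds. They also serve as progenitors that renew the airway lining, and gel-forming mucins are made by the more goblet-like secretory cells of the same lineage. The genes described here are 8 genes of this secretory programme, taken by name from the gene table: Scgb1a1, Scgb3a1, Scgb3a2, Bpifa1, Aldh1a1, Hp, Muc5b and Muc5ac. All 8 were among the 56980 genes listed, had counts in each of the 12 libraries and passed the filter on low counts.

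The libraries hold polyadenylated RNA of lung tissue from male C57BL/6 mice aged 6 to 8 weeks, 4 in each of 3 groups. HBG mice received bleomycin, a drug that injures the lung and leads to fibrosis, as 1 instillation of 5 mg/kg into the trachea, plus an oral herbal medicine, Huashibaidu granules, given at 7 g/kg. Model mice received the same bleomycin and distilled water, and Control mice received distilled water and, as far as the labels say, no bleomycin. The series text starts the granules 1 week ahead of bleomycin and ends them on day 28, whereas the sample protocols start them on day 7 for 14 days. Whether each library is a separate animal is not stated in the labels, and p-values therefore cover the spread among these libraries, which could be technical. Library totals were 17979863 to 20752001 estimated counts in HBG, 19230806 to 22622406 in Model and 18864759 to 27150787 in Control. Alveolar type II cell markers summed to 14804 to 28523 CPM (counts scaled to library size) over the 12 libraries, so markers of the labelled tissue were present in each.

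None of the 8 genes passed the edgeR quasi-likelihood test in any of the 3 comparisons of HBG, Model and Control (adjusted p threshold 0.05, adjusted over 17827 genes). DESeq2 and limma-voom with sample quality weights likewise called 0 of the 8 in each comparison. Over all genes with an adjusted p, DESeq2 called 2.14% in Model against Control, 0.00876% in HBG against Model and 0.983% in HBG against Control, and limma-voom called 6.05%, 0% and 0.567% in the same order. At an unadjusted p under 0.05, edgeR held 1 gene, Scgb1a1, in Model against Control, where 11.7% of all genes did so, and 0 in HBG against Model (2.43% of all genes) and in HBG against Control (8.25%). Among all genes tested, edgeR called 0.348% in Model against Control, 0% in HBG against Model and 0.151% in HBG against Control. The data therefore show the level of each gene in each library and the very unequal spread of the genes between libraries of 1 group. Scgb1a1 was lower in every Model library than in every Control library, but the difference did not pass (edgeR adjusted p = 0.361). Model lower without overlap was found for 4.51% of all genes tested.

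Scgb1a1, the main secretoglobin of club cells, was the most abundant transcript of the lung per length, with a mean of 126100 TPM (a level scaled for gene length and depth, computed here from the counts and the deposited gene lengths). It took between 1.64% and 5.79% of the counts of a library. Scgb3a2 stood at 3671 TPM, Aldh1a1 at 1908, Hp at 1787, Bpifa1 at 1742 and Scgb3a1 at 1438, so these 5 genes were among the 51 most abundant of all genes listed. Muc5b stood at 27.5 TPM and Muc5ac, the mucin of goblet cells, at 0.844 TPM.

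The 8 genes varied very differently between libraries. The ratio of the highest to the lowest of the 12 libraries, in CPM scaled by TMM, was 307.5 for Bpifa1, 22.4 for Scgb3a1 and 19.4 for Muc5b. It was 5.91 for Muc5ac and between 2.94 and 3.75 for Aldh1a1, Hp, Scgb3a2 and Scgb1a1. Within groups, the ratio was 307.5 in HBG, 34.8 in Model and 40.7 in Control for Bpifa1, 9.07, 12.1 and 6.51 for Scgb3a1 and 8.96, 18.7 and 2.09 for Muc5b, and it reached at most 3.51 for Scgb3a2 and 2.72 for Scgb1a1. The SD of log2 CPM over the 12 libraries was 2.65 for Bpifa1, larger than that of 99.9% of the 15919 genes with a mean of at least 1 CPM. It was 1.48 for Scgb3a1 and 1.47 for Muc5b (98.7% of genes were below each), against a median SD of 0.26 over those genes. Aldh1a1 had the smallest SD of the 8 over the 12 libraries, at 0.48, which exceeded that of 79.1% of genes.

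**Figure D1:**
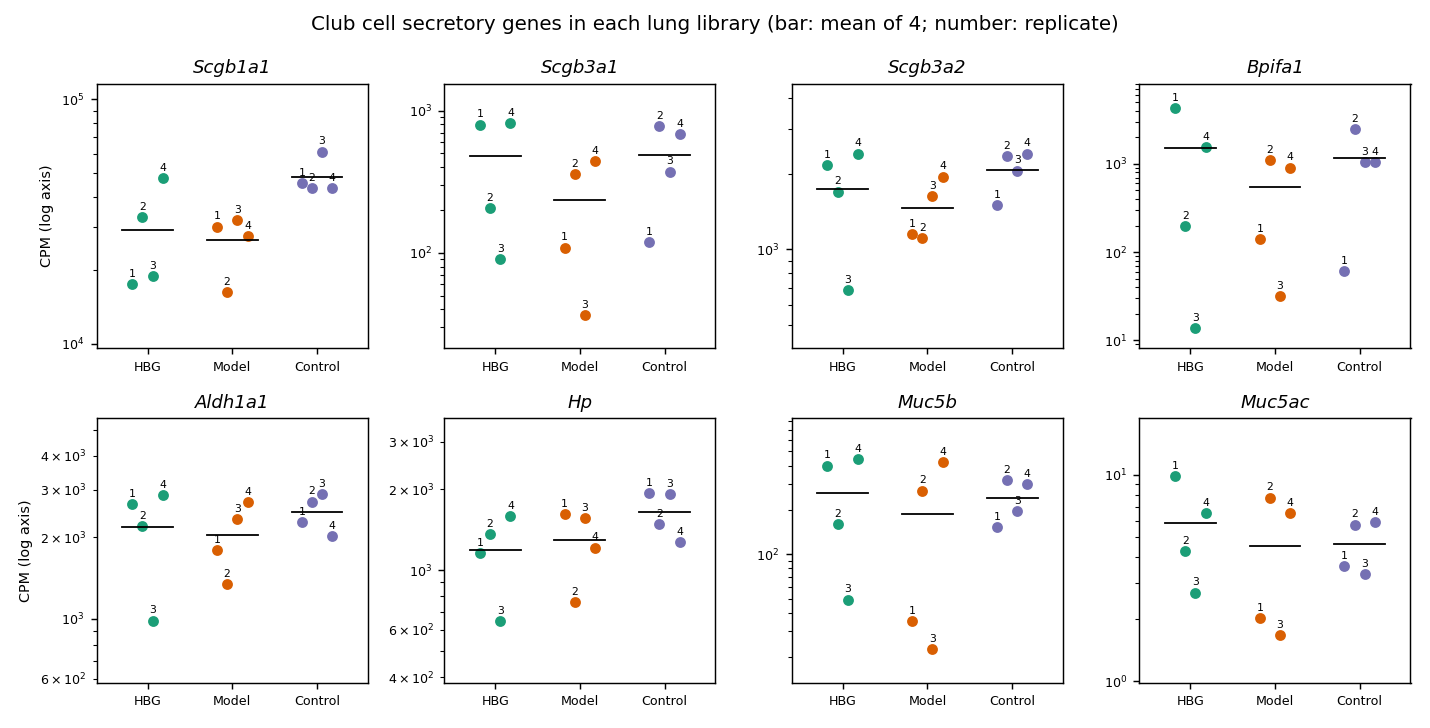
CPM of each gene (log axis, a range of its own in each panel) in the 4 HBG, 4 Model and 4 Control libraries; points are libraries with their replicate number and the bar is the arithmetic mean of 4. The Scgb1a1 points of Model all lie below those of Control, whereas Bpifa1 and Scgb3a1 spread widely in every group and Muc5b in HBG and Model.

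Scgb1a1 (ENSMUSG00000024653, chromosome 19) had 17564, 32871, 18937 and 47763 CPM in HBG libraries 1 to 4. It had 30152, 16277, 31919 and 27562 CPM in Model libraries 1 to 4, and 45258, 43241, 61113 and 43254 CPM in Control libraries 1 to 4. Every Model library was below every Control library, while HBG library 4 reached the Control range and the other 3 HBG libraries did not. The mean was 26478 ± 7032 CPM in Model and 48217 ± 8650 CPM in Control (SD, n = 4 each). The log2 fold change of Model against Control was -0.86 ± 0.34 (SE), a 0.549-fold level, with an edgeR unadjusted p of 0.0259 and an adjusted p of 0.361. Groups that do not overlap, with Model lower, were found for 4.51% of the genes tested. In bulk tissue, fewer club cells and less RNA per club cell cannot be told apart.

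HBG averaged 29284 ± 14128 CPM of Scgb1a1 (SD, n = 4). Set against Model, its log2 fold change stood at 0.14 ± 0.34 (SE; edgeR adjusted p = 0.9999), and set against Control at -0.72 ± 0.34 (edgeR adjusted p = 0.608). By mean, HBG stood just above Model and both stood below Control, and HBG and Model were closer to each other than the spread within either. HBG is compared with Model, and Model with Control, on the same Model libraries, and both bleomycin groups are set against the same Control libraries, so the comparisons are not independent.

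Scgb3a2, the secretoglobin that is made in club cells from early development, varied less in its means. It had 2164, 1693, 685 and 2403 CPM in HBG libraries 1 to 4, against 1147, 1104, 1621 and 1944 CPM in the Model libraries and 1496, 2350, 2056 and 2400 CPM in Control. HBG library 3 was the lowest of the 12, and the groups overlapped in every comparison. The log2 fold change was -0.51 ± 0.34 (SE) for Model against Control (edgeR adjusted p = 0.582), 0.26 ± 0.34 for HBG against Model (0.9999) and -0.26 ± 0.34 for HBG against Control (0.858).

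Aldh1a1, which oxidises retinaldehyde to retinoic acid, had 2643, 2204, 985 and 2861 CPM in HBG, 1795, 1338, 2331 and 2688 CPM in the Model libraries and 2270, 2710, 2894 and 2014 CPM in Control. Hp encodes haptoglobin, which binds free haemoglobin, and had 1160, 1363, 647 and 1590 CPM in HBG, 1615, 762, 1565 and 1213 CPM in the Model libraries and 1930, 1484, 1913 and 1267 CPM in Control. HBG library 3 was the lowest of the 12 for both genes and Model library 2 the next, and all groups overlapped. Model against Control gave -0.28 ± 0.31 for Aldh1a1 and -0.35 ± 0.29 for Hp (log2 fold change ± SE, edgeR adjusted p = 0.768 and 0.672). HBG against Model gave 0.09 ± 0.31 and -0.11 ± 0.29 (both 0.9999), and HBG against Control -0.19 ± 0.31 and -0.47 ± 0.29 (0.890 and 0.695). The counts of Aldh1a1 were not whole in 11 libraries, while those of the other 7 genes were whole. Aldh1a1 has a close paralog, Aldh1a7, and whether shared reads gave the fractions was not tested. The sum of the 2 paralogs was 2391 ± 905.9 CPM in HBG, 2280 ± 652.5 CPM in Model and 2762 ± 439.1 CPM in Control (SD, n = 4 each), in the same order as Aldh1a1 alone. Hepatocytes are the main source of haptoglobin, and their markers stayed low in these libraries, at 1.89 to 22.2 CPM in sum in HBG, 3.13 to 18.8 CPM in Model and 5.28 to 80.4 CPM in Control. All 5 tested had a log2 fold change below 0 in Model and in HBG against Control (medians -1.89 and -1.99). Over all genes tested 48.5% and 49% did so. In edgeR 0 of the 5 passed, and DESeq2 called Fgb lower in Model against Control. The part of hepatocyte RNA in the Hp levels was not tested.

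The other 4 genes varied widely between libraries of the HBG and Model groups, and Bpifa1 and Scgb3a1 also between Control libraries. Bpifa1, a secreted lipid-binding defence protein of the upper airways, had 4272, 198, 13.9 and 1543 CPM in HBG libraries 1 to 4. It had 141, 1114, 32.0 and 905 CPM in the Model libraries and 60.6, 2469, 1053 and 1056 CPM in Control. Each group held libraries under 150 CPM and libraries above 900 CPM: HBG library 3, Model libraries 1 and 3 and Control library 1 were low.

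Scgb3a1, the secretoglobin of the larger airways, had 796, 206, 89.8 and 815 CPM in HBG libraries, 109, 357, 36.3 and 439.9 CPM in Model libraries and 119, 775, 373 and 683 CPM in Control libraries. Its lowest libraries were those of Bpifa1: Model 3, HBG 3, Model 1 and Control 1. Muc5b, the mucin that mouse airways need for clearance, had 400.3, 160.0, 49.2 and 441 CPM in HBG, 35.1, 270.3, 22.7 and 425 CPM in the Model libraries and 152, 319, 196 and 298 CPM in Control. Muc5ac, the mucin induced in goblet cell metaplasia, had 9.89, 4.27, 2.69 and 6.54 CPM in HBG, 2.03, 7.78, 1.67 and 6.55 CPM in the Model libraries and 3.61, 5.76, 3.30 and 5.92 CPM in Control. For both mucins the lowest libraries were Model 3, Model 1 and HBG 3, while the Control libraries lay close together.

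None of the differences in these 4 genes reached 1.5 times its standard error. Model against Control gave log2 fold changes of -1.08 ± 1.41 for Bpifa1, -1.05 ± 0.84 for Scgb3a1, -0.36 ± 0.84 for Muc5b and -0.05 ± 0.52 for Muc5ac (SE, edgeR adjusted p between 0.663 and 0.982). HBG against Model gave 1.46 ± 1.42, 1.02 ± 0.84, 0.48 ± 0.84 and 0.38 ± 0.52 in the same order of genes (each 0.9999). HBG against Control gave 0.38 ± 1.40, -0.03 ± 0.83, 0.12 ± 0.84 and 0.33 ± 0.52 (0.884 to 0.994). The sign of Bpifa1 in HBG against Control rested on HBG library 1, without which the log2 fold change was -0.99. With limma-voom and sample quality weights, Muc5b stood at -2.40 in Model against Control (limma-voom adjusted p = 0.0546) and at 2.74 in HBG against Model (limma-voom adjusted p = 0.201). Model libraries 3 and 1, the lowest in Muc5b, had weights of 2.96 and 1.37 there. Model libraries 2 and 4, with far more Muc5b, had 0.33 and 0.533, and HBG library 3 had 0.231.

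**Figure D2:**
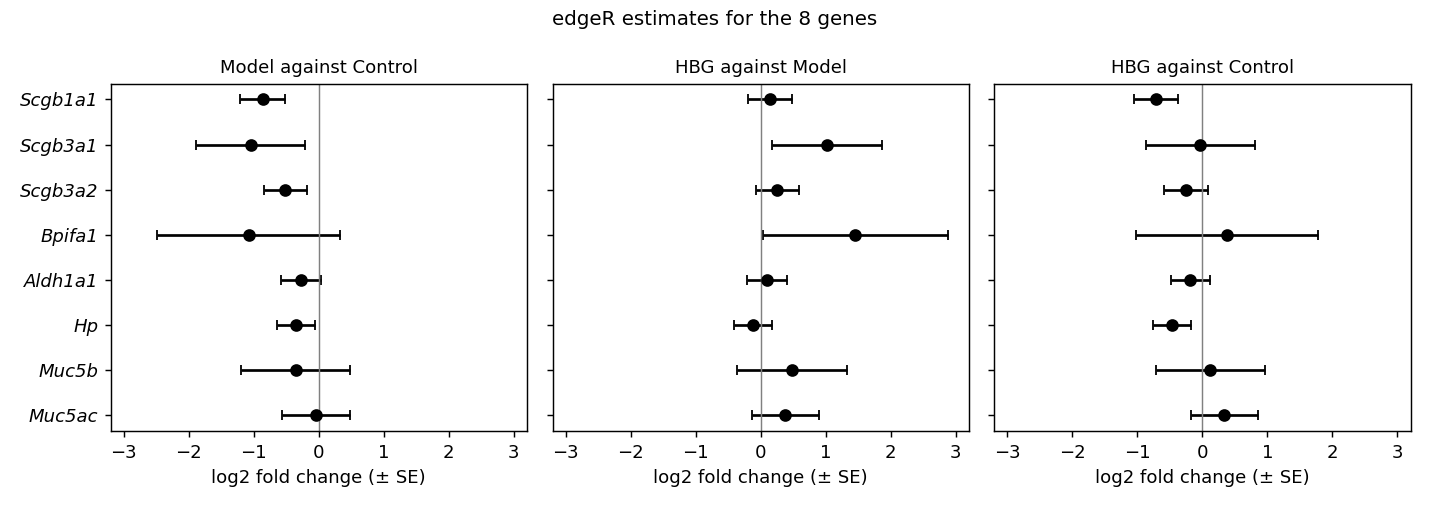
Log2 fold changes (points) with their standard errors (bars) from edgeR for the 8 genes in the 3 comparisons, with 4 libraries per group. Every point lies below 0 in Model against Control and the bars of Bpifa1, Scgb3a1 and Muc5b are the widest, but no gene passed the threshold.

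All 8 genes had a log2 fold change below 0 in Model against Control, with a median of -0.43, where 48.5% of all genes tested were below 0 and their median was 0.01. In HBG against Model 7 of the 8 were above 0 (median 0.32, with 49.9% of all genes below 0), and in HBG against Control 3 were above and 5 below (median -0.11, with 49% of all genes below 0). Some of the genes, though not all, varied together between libraries, so these counts do not stand for 8 separate observations.

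Across the 12 libraries 4 of the genes formed a set that varied together. Of the 28 pairs, 11 had a Pearson correlation of log2 CPM past an adjusted p of 0.05, 11 a Spearman correlation and 10 both (permutation tests, 100000 resamples, adjusted over the 28 pairs). In the set were Muc5b, Muc5ac, Scgb3a1 and Bpifa1, and all 6 pairs among them passed by both measures. Muc5b and Muc5ac, which lie next to each other on chromosome 7 with 0 protein-coding genes between them, had r = 0.93 and rho = 0.86 (permutation adjusted p = 0.00028 and 0.0063, n = 12). Scgb3a1 and Bpifa1, on chromosomes 11 and 2, had r = 0.93 and rho = 0.92 (permutation adjusted p = 0.00028 and 0.0018, n = 12). Scgb3a1 and Muc5b had r = 0.93 and rho = 0.94 (permutation adjusted p = 0.00028 and 0.00056, n = 12). Without the 2 libraries farthest from the median of the first gene, r was 0.84 for the mucins, 0.94 for Scgb3a1 with Bpifa1 and 0.85 for Scgb3a1 with Muc5b. Taken as deviations from the group means, the 3 values were 0.95, 0.96 and 0.92, so the relations held within the groups.

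Scgb1a1 varied separately from that set, with r = 0.14 to Scgb3a1, 0.11 to Bpifa1 and 0.12 to Muc5b (permutation adjusted p = 0.79 for each, n = 12). It varied with Hp, at r = 0.82 and rho = 0.78 (permutation adjusted p = 0.0031 and 0.014, n = 12), and r was 0.72 without the 2 farthest libraries and 0.80 on deviations from the group means. Scgb3a2 and Aldh1a1 had r = 0.90 and rho = 0.72 (permutation adjusted p = 0.0022 and 0.029, n = 12), with r = 0.67 without the 2 farthest libraries. Aldh1a1 and Hp had r = 0.79, but the relation rested on HBG library 3 and Model library 2: rho was 0.47 (permutation adjusted p = 0.2, n = 12), and r without the 2 libraries farthest in Aldh1a1 was 0.03. Scgb3a2 also varied with genes of the set, with r = 0.72 to Bpifa1 and 0.66 to Scgb3a1 (permutation adjusted p = 0.020 and 0.044, n = 12).

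**Figure D3:**
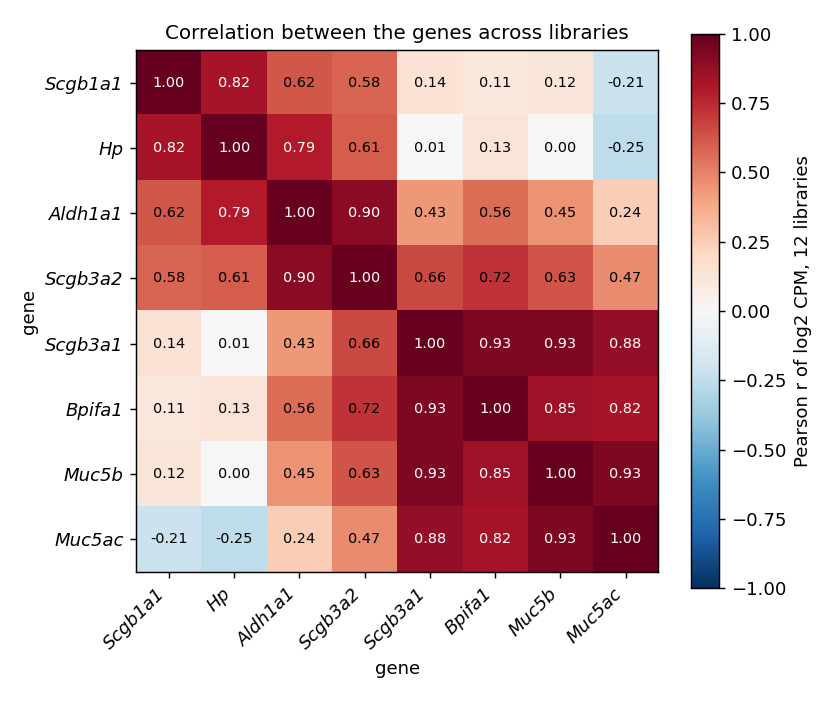
Pearson correlation of log2 CPM over the 12 libraries for each pair of the 8 genes (colour and printed value, from -1 to 1). Scgb3a1, Bpifa1, Muc5b and Muc5ac form a block with r from 0.82 to 0.93, and Scgb1a1 reaches at most 0.14 with any of them.

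Because Bpifa1 and Scgb3a1 varied together, the 250 bases before the RefSeq start site of each gene are shown, 5′ to 3′ on the gene's strand (GRCm38.p6). The capitals mark matches to short motifs of factors active in lung epithelium. Bpifa1 lies on the plus strand at chr2:154142630-154142879 and Scgb3a1 on the plus strand at chr11:49663345-49663594.
Bpifa1: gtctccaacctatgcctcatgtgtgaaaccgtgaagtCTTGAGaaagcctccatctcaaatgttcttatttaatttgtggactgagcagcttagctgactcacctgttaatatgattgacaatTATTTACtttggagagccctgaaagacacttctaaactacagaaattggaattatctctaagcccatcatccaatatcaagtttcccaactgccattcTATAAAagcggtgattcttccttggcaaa
Scgb3a1: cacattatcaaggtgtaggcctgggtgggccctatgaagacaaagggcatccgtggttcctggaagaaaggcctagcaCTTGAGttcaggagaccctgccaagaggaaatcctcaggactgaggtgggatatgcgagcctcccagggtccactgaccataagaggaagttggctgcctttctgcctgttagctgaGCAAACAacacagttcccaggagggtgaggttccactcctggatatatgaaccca
The motifs were searched on both strands. The NKX2-1 core CTCAAG, whose reverse complement is CTTGAG, matched 213 bases before the start of Bpifa1 and 172 bases before that of Scgb3a1, and 13.3% of 32851 RefSeq promoter windows of that length hold it. The FOXA core TNTTTNC matched 127 bases before Bpifa1 as TATTTAC and 55 bases before Scgb3a1 on the reverse strand as GCAAACA, and 48.1% of windows hold it. A TATA box, TATAAA, matched 29 bases before Bpifa1 and 12.4% of windows hold it, while the C/EBP motif TTGCNNCAA, held by 1.74% of windows, had no match in these windows. No match overlapped another. A match describes letters only, and the motifs were chosen after the values and sequences were seen.

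The library to library variation was set beside markers of other cell types, each summed in CPM. Cardiac muscle markers, of which all 9 had counts, summed to 3330, 1174, 333 and 3087 CPM in HBG, 524, 1257, 345 and 3173 CPM in the Model libraries and 830.2, 5499, 2890 and 2313 CPM in Control. The 3 lowest libraries were HBG 3, Model 3 and Model 1, which were also the 3 lowest for Muc5b and for Muc5ac. Adipocyte markers, all 8 with counts, summed to 37.9 to 621 CPM in HBG, 19.3 to 349 CPM in Model and 61.9 to 294 CPM in Control, with the same 3 libraries lowest. Basal cells line the trachea and the large airways, and their 7 markers summed to 234, 5.84, 4.54 and 36.6 CPM in HBG, 9.50, 42.4, 5.93 and 57.3 CPM in the Model libraries and 2.86, 78.1, 32.9 and 17.97 CPM in Control. HBG library 1 held the most basal cell markers and the most Bpifa1, and Control library 1 the fewest of those markers and the least Bpifa1 of the Control libraries. Cartilage markers of the large airways summed to 21.3 to 65.9 CPM in HBG, 17.8 to 63.2 CPM in Model and 36.4 to 73.5 CPM in Control. Model 3, Model 1 and HBG 3 were again the lowest libraries, at 17.8, 19.8 and 21.3 CPM. Chad alone averaged 36.0, 32.3 and 47.3 CPM in HBG, Model and Control, of mean sums of 41.5, 37.7 and 53.7 CPM. How much proximal airway, heart or fat the pieces of tissue held, and its part in the spread of these genes, was not tested.

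Neutrophil markers, 8 of 8 with counts, summed to 311 CPM in HBG library 3 and 31.3 to 72.9 CPM in the other HBG libraries. In Model they summed to 614 CPM in library 2 and 35.8 to 101.2 CPM in the others, and in Control to 46.6 to 174 CPM. HBG library 3 and Model library 2, the highest in neutrophil markers, were the lowest in Hp and Aldh1a1. Without HBG 3, Model 2 and Control 4 together, none of the 8 genes passed the edgeR test either. These 3 libraries had the lowest sample quality weights of their groups in limma-voom (0.231, 0.33 and 0.962). Control 4 was not the highest Control library in neutrophil markers (137 CPM, against 174 CPM in Control 1), so leaving the 3 out does not test those markers. The part of the neutrophil markers in these levels was not tested.

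**Figure D4:**
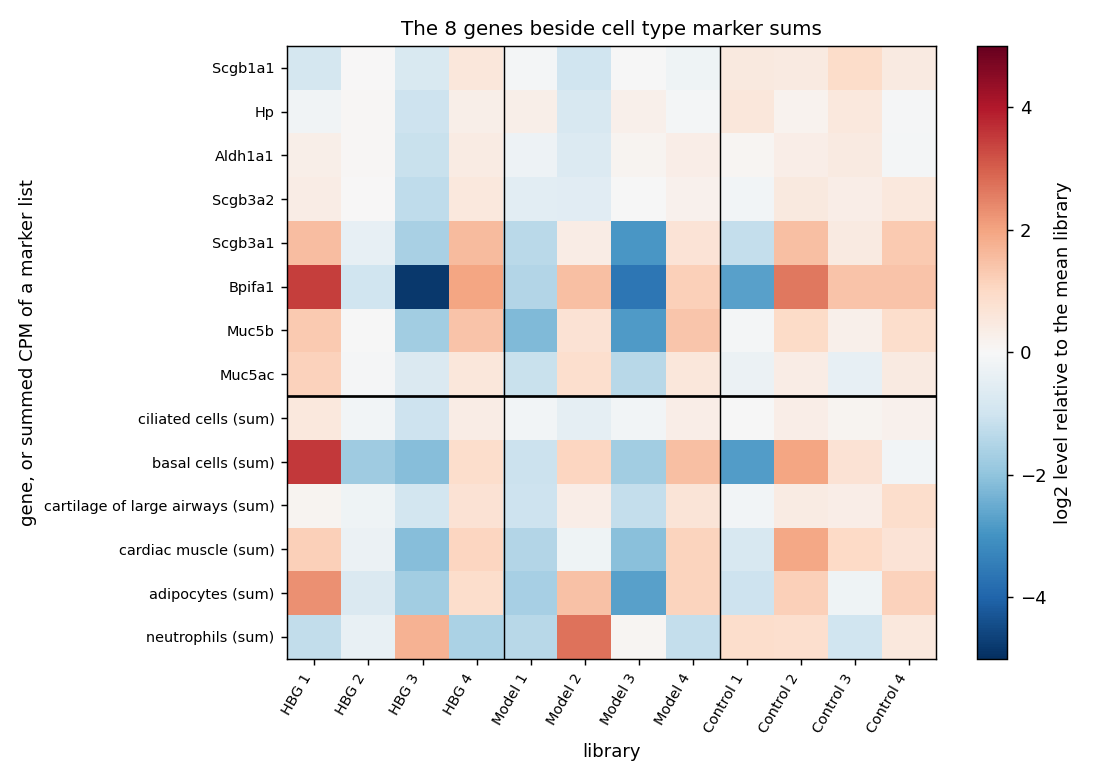
Log2 level of each gene and of the summed CPM of 6 marker lists in each library, relative to the mean of the 12 libraries (colour), with HBG, Model and Control columns parted by lines. Bpifa1, Scgb3a1, Muc5b and Muc5ac are low in HBG 3, Model 1 and Model 3, the libraries with the lowest sums of cardiac muscle, adipocyte and cartilage markers.

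Ciliated cells share the small airways with club cells. Their 14 markers, all with counts, summed to 1914, 1199, 654 and 1714 CPM in HBG, 1220, 969, 1216 and 1677 CPM in the Model libraries and 1318, 1696, 1474 and 1558 CPM in Control, so the groups overlapped. All 14 had a log2 fold change below 0 in Model against Control, with a median of -0.23, where 48.5% of all genes tested were below 0. Markers of the same cell type can vary together, so the 14 do not stand for 14 separate observations. Of the 14, 0 passed the edgeR test, an unadjusted p under 0.05, DESeq2 or limma-voom. Tppp3, a tubulin-binding protein, had 452 ± 115 CPM in HBG, 396 ± 68.3 CPM in Model and 480.3 ± 20.6 CPM in Control, and Foxj1, the master factor of motile cilia, 187 ± 105, 172 ± 46.7 and 215 ± 47.9 CPM (SD, n = 4 each). Scgb1a1 counts per ciliated marker count were 9.18, 27.4, 28.9 and 27.9 in HBG, 24.7, 16.8, 26.3 and 16.4 in Model and 34.3, 25.5, 41.5 and 27.8 in Control. The log2 ratio differed by -0.62 between Model and Control (exact permutation p = 0.0571, adjusted p = 0.857). Of 15 such tests, on 5 ratios and 3 comparisons, 0 had an unadjusted p under 0.05, where 4 against 4 libraries can give 0.0286 at the smallest.

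Within a library the ratio of Muc5ac to Muc5b does not depend on the scaling. Muc5ac counts were 2.47%, 2.67%, 5.48% and 1.48% of the Muc5b counts in HBG, 5.77%, 2.88%, 7.37% and 1.54% in Model and 2.37%, 1.81%, 1.69% and 1.99% in Control. The share was highest in the libraries with the least Muc5b, and Model against Control differed by 0.93 on the log2 scale (exact permutation p = 0.171, adjusted p = 0.857).

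Of 24 other genes known from club cells, 0 passed the edgeR test in any comparison. Among the 24, Krt15 is also on the basal cell list and Chad on the cartilage list, so not all are particular to club cells. In Model against Control 22 of the 24 had a log2 fold change below 0 (median -0.44), as did 48.5% of all genes tested. Such genes can vary together and were listed with earlier results known, so the 24 do not stand for 24 separate observations. Of the 24, 6 had an unadjusted p under 0.05 (11.7% over all genes). DESeq2 called 1 lower and limma-voom 5 lower, Slc16a11 and Tst among them. In HBG against Model 17 were above 0 (median 0.10, with 49.9% of all genes below 0), with 0 at an unadjusted p under 0.05 (2.43% over all genes). In HBG against Control 19 were below 0 (median -0.33, with 49% of all genes below 0), with 1 at an unadjusted p under 0.05 (8.25% over all genes). The most abundant were Cbr2, a carbonyl reductase, with 3979 ± 1414 CPM in HBG, 3762 ± 779.5 CPM in Model and 5127 ± 624.5 CPM in Control, and Cyp2f2, a cytochrome P450 that metabolises naphthalene, with 3537 ± 1380, 3492 ± 1021 and 4921 ± 380.3 CPM (SD, n = 4 each). In 4 of them, chosen after their values were seen, no Model library reached a Control library: Gabrp, Cldn10, Tst and Slc16a11. Model lower without overlap was found for 4.51% of all genes tested. Slc16a11, a transporter of monocarboxylates, had 30.1 ± 10.8 CPM in HBG, 21.7 ± 3.52 CPM in Model and 43.7 ± 7.84 CPM in Control, with a log2 fold change of -1.01 ± 0.24 (SE) for Model against Control (edgeR adjusted p = 0.142), and it was the gene that DESeq2 called.

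The genes whose log2 CPM followed Scgb1a1 most closely over the 12 libraries, among 14180 genes compared, were Cldn10 (r = 0.96), a claudin of tight junctions, Cyp39a1 (r = 0.96), an oxysterol hydroxylase, and Smim11 (r = 0.95). Cldn10 had 30.0 ± 13.5 CPM in HBG, 26.6 ± 7.63 CPM in Model and 46.9 ± 7.92 CPM in Control (SD, n = 4 each). Those closest to Muc5b were Cdkl1 (r = 0.97), Sfrp5 (r = 0.96), a secreted Wnt antagonist, and Tbx20 (r = 0.96), a transcription factor of the heart. Cfd, a gene of the adipocyte marker list, came at rank 4 (r = 0.96). Bpifb1, a further defence protein of the Bpif family, came at rank 5 (r = 0.96). Ranks 6 to 10 were Hamp, Car3, Retn, also of the adipocyte list, Sbk3 and Mlip (r = 0.945 to 0.954). The genes at ranks 4 and 6 to 10 were named after their values were seen.

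**Figure D5:**
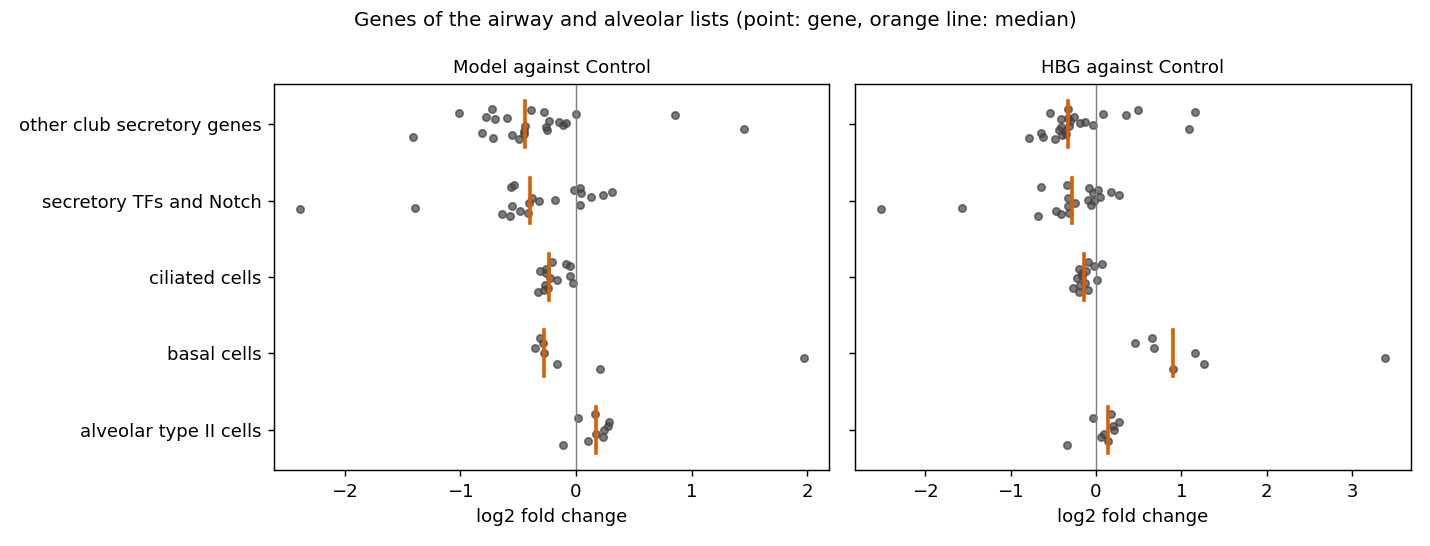
Log2 fold changes from edgeR of the tested genes of 5 lists (points) and the list medians (orange lines) in Model against Control and HBG against Control. The medians of the other club secretory genes lie at -0.44 and -0.33, and the point near -2.4 in Model against Control and -2.5 in HBG against Control is Cebpb.

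Of 20 transcription factors and Notch pathway genes of secretory cells, Cebpb was the 1 gene that passed the edgeR test. It encodes C/EBP beta, a factor of epithelial and myeloid cells from a family known to act on the Scgb1a1 promoter. Cebpb had 22.0, 18.9, 11.01 and 18.4 CPM in HBG, 20.2, 13.7, 26.0 and 17.2 CPM in the Model libraries and 89.6, 138, 113 and 64.7 CPM in Control, so that both bleomycin groups lay far below every Control library. It fell by 2.39 ± 0.28 (SE) on the log2 scale in Model against Control (edgeR adjusted p = 0.00264) and by 2.52 in HBG against Control (edgeR adjusted p = 0.00248), while HBG against Model stood at -0.13 (edgeR adjusted p = 0.9999). It passed in all 23 alternatives of both comparisons with Control, the largest adjusted p being 0.0345 and 0.0293 with the replicate number as a block. The transcripts of Cebpb hold 67.2% G and C, against a median of 49.3% over the genes tested and 57% over the genes lower in Model. Corrected for GC content and transcript length, its log2 fold changes were -2.005 and -2.11. DESeq2 called Cebpd, the gene of C/EBP delta, lower as well in both comparisons with Control. In Model against Control limma-voom called Cebpb, Cebpd, Foxa1 and Hey1 lower, and in HBG against Control it called Cebpb alone.

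Nkx2-1, the lung lineage factor, had 146 ± 25.5 CPM in HBG, 157 ± 44.7 CPM in Model and 233 ± 25.6 CPM in Control (SD, n = 4 each). Neither bleomycin group overlapped with Control, but Nkx2-1 did not pass (edgeR adjusted p = 0.312 for Model and 0.392 for HBG against Control). Against Control, lower levels without overlap were found for 4.51% of all genes tested in Model and 3.92% in HBG. Cebpa, Hes1 and Hey1 also had every Model library below every Control library, at -0.48, -0.56 and -0.54 on the log2 scale (edgeR adjusted p = 0.287, 0.344 and 0.332), and of these limma-voom called Hey1. These genes were named after their values were seen, and 5 of the 20 genes of the list had Model lower without overlap. Notch1, the receptor, had 140.2 ± 34.7 CPM in HBG, 137 ± 39.5 CPM in Model and 116 ± 13.1 CPM in Control. Nkx2-1 is also made by alveolar cells, and C/EBP factors by alveolar and myeloid cells, so bulk levels do not belong to club cells alone.

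Relatives of the secreted genes were few or unequal. Of 37 other secretoglobin genes 4 had any count and 1, Scgb1c1, was tested, with 6.34 ± 3.15 CPM in HBG, 6.65 ± 2.29 CPM in Model and 10.9 ± 3.70 CPM in Control. Bpifb1 had 347 ± 293 CPM in HBG, 248 ± 251 CPM in Model and 411 ± 270 CPM in Control, and Bpifb5 about 2 CPM in each group. Of the other mucins, the membrane-bound Muc1 had 237 ± 29.3 CPM in HBG, 282 ± 49.8 CPM in Model and 246 ± 23.0 CPM in Control, and Muc4 152 ± 142, 135 ± 38.0 and 112 ± 25.6 CPM (SD, n = 4 each). The gel-forming Muc6 had 11.03 ± 3.45 CPM in HBG, 15.6 ± 2.93 CPM in Model and 22.5 ± 2.48 CPM in Control, with no overlap between either bleomycin group and Control (edgeR adjusted p = 0.386 for Model and 0.154 for HBG). Lower levels than Control without overlap were found for 4.51% of all genes tested in Model and 3.92% in HBG. Muc16 and Muc20 overlapped in all comparisons. None of these relatives passed the edgeR test.

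Genes that act with the secreted proteins did not pass the edgeR test in any comparison, and other tools called a few. Over all genes tested, 11.7% had an unadjusted p under 0.05 in Model against Control, beside which the counts below are to be read. Of 18 tested genes of goblet cells and mucus production 0 passed (2 at an unadjusted p under 0.05 in Model against Control), while DESeq2 and limma-voom called Il4ra, a receptor chain of the mucus-inducing cytokines, and Slc26a4, an anion exchanger, higher in Model against Control. Il4ra had 112 ± 14.1 CPM in HBG, 136 ± 25.3 CPM in Model and 92.2 ± 7.67 CPM in Control. Of 16 tested airway defence proteins and 15 tested acute phase and haptoglobin clearance genes 0 passed (2 and 7 at an unadjusted p under 0.05 in Model against Control), and both tools called Lcn2, lipocalin 2, higher, with 212 ± 93.5 CPM in HBG, 273 ± 168 CPM in Model and 91.0 ± 26.4 CPM in Control. Both tools also called Saa2, a serum amyloid A gene that reached at most 5.88 CPM in a library, lower in Model against Control, and limma-voom called Serpina3n and Stat3 higher. The most abundant defence genes, Lyz2 (a lysozyme) and Sftpa1 (surfactant protein A), did not pass in edgeR. Neither did C3 and Stat3, the most abundant of the acute phase and haptoglobin clearance list. Hp lay below 0 in Model against Control, as did 48.5% of all genes tested. Of the 15 acute phase and haptoglobin clearance genes, which include receptors and signalling genes, 12 lay above 0. The 3 below 0, like Hp, were Saa1 (-2.56), Saa2 (-4.12) and Hpx (-1.49). Among 8 receptors and targets of the secreted proteins (0 passed, 3 at an unadjusted p under 0.05 in Model against Control), Scnn1a, a subunit of the sodium channel that Bpifa1 is known to inhibit, had 348 ± 20.3 CPM in HBG, 400 ± 48.9 CPM in Model and 297 ± 32.6 CPM in Control (edgeR adjusted p = 0.170 for Model against Control), and DESeq2 and limma-voom called it higher, with Cubn and Lrp2 called higher by limma-voom alone. Of 13 tested retinoid genes 0 passed (1 at an unadjusted p under 0.05 in Model against Control), with 1 called lower by DESeq2 in HBG against Control and 1 by limma-voom in Model against Control. The genes named here from calls of DESeq2 or limma-voom were picked out after their values were seen.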

How the data were processed

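Polyadenylated lung RNA was sequenced as paired reads of 150 bases from TruSeq stranded libraries, per the labels' protocols. The submitters' processing notes name aligners (HISAT2, STAR 2.7.9a), counters (HTSeq, featureCounts 2.0.1), read trimmers (Trimmomatic 0.39 among them) and the builds mm10 and GRCm39, with no role or order. The counter, its strand setting and its annotation are not stated there. The deposited table holds an estimated count per gene and library (10% to 15.1% of values per library are not whole, at a tolerance of 1e-06), group means that were not used, and gene length. Groups and replicate numbers came from the sample titles, where HBG libraries are written HSBD.

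Estimated counts were rounded. Tests used edgeR 4.0.16 (R 4.3.3): TMM factors, filterByExpr (17827 genes kept), the quasi-likelihood F test on all 12 libraries with group as the only term, two-sided, Benjamini-Hochberg adjusted over all genes tested, threshold 0.05. SEs derive from the F statistic. CPM use the TMM factors. Ratios were tested with exact two-sided permutation tests. A count of 0 allows up to 3 counts, or 0.110 to 0.167 CPM, for counting error only. Libraries of a group correlated at r = 0.93 to 0.99 in log2 CPM, and no pair agreed within sampling noise (chi-square per degree of freedom 17.8 to 154).

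In simulated counts for Model against Control (17613 genes), 61 of 100 genes changed 2-fold and 94 of 100 changed 4-fold were recovered, with 3 false calls. The changed genes were drawn at random among those with a mean of at least 1 CPM. The SDs of the 8 genes exceeded those of 79.1% to 99.9% of such genes, so this recovery does not apply to them. Alternatives were DESeq2 1.42.0, limma-voom (limma 3.58.1) with sample quality weights, RLE, upper-quartile or no factors, no filter, a mean of at least 1 CPM, the 2 groups compared only, the replicate number as a block, each library left out in turn, and 3 libraries left out together. Added after the data were seen were the sum of Aldh1a1 and Aldh1a7 and a correction for GC content and length, computed from GENCODE M21 transcripts for 98.1% of the tested genes. The 8 genes and the gene lists were chosen with earlier results of these data known. Named are the 8 genes, the 3 genes most like Scgb1a1 and Muc5b, called genes and the most abundant genes of each pathway list, and family members of at least 1 CPM; others are marked. Promoters come from RefSeq on GRCm38.p6, matched by symbol for 3 of the 8 genes.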

Additional observations from a re-analysis of the deposited data

Results flagged for a closer look

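Of 39 groups of 4 libraries examined, 3 held a library far from the other 3 of its group by Dixon's criterion. For normally distributed values chance meets it in about 1 of 20 groups. It was applied to CPM and ratios without a log, where skewed values can meet it more often. Scgb1a1 had 61113 CPM in Control library 3, where the other Control libraries had 43241 to 45258 CPM. The ratio of Bpifa1 to Scgb1a1 counts was 0.243 in HBG library 1, where the other HBG libraries had 0.000734 to 0.0323. The ratio of Scgb1a1 to ciliated marker counts was 9.18 in HBG library 1, where the other HBG libraries had 27.4 to 28.9.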

How the results depend on the processing

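The 8 genes stayed on their side of the threshold under all 555 alternatives, and the direction was unchanged in 523 of them. The smallest adjusted p was 0.0546 (Muc5b, Model against Control, limma-voom). The number of genes called over the whole table moved more. For Model against Control, edgeR called 62 (9 higher, 53 lower), DESeq2 418 (181 and 237), limma-voom with sample quality weights 1079 (620 and 459) and the fit with the replicate number as a block 25. For HBG against Control edgeR called 27, DESeq2 198 (53 and 145), limma-voom 101 and the replicate block 17. For HBG against Model edgeR called 0 (433 at an unadjusted p under 0.05) and DESeq2 3. With 1 library left out the counts ranged from 23 (without Control 3) to 100 (without HBG 3) for Model against Control, 0 to 0 for HBG against Model, and 16 (without Control 3) to 53 (without Model 2) for HBG against Control. The cause was not tested.

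Directions near 0 turned in HBG against Control: Scgb3a1 stood at 0.40 with limma-voom, 0.015 with library totals, 0.51 without Control 4, Model 2 and HBG 3 together and 0.12 after the correction for GC content and length, Scgb3a2 at 0.078 without those 3 libraries, and Bpifa1 and Muc5b at -0.79 and -0.22 under the replicate block. The block changed no other direction and no call of the 8 genes or Cebpb. The numbers share only a label: correlations of deviations between same-numbered libraries ran from -0.357 to 0.481, and 3 of 12 libraries correlated best with their own number.

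With 1 library left out, log2 fold changes that turned ranged as follows. In Model against Control, Muc5b ranged from -1.14 to 0.013 and Muc5ac from -0.44 to 0.23. In HBG against Model, Scgb1a1 ranged from -0.20 to 0.33, Aldh1a1 from -0.069 to 0.33, Hp from -0.30 to 0.088, Muc5ac from -0.0022 to 0.78 and Cebpb from -0.27 to 0.045. In HBG against Control, Scgb3a1 ranged from -0.42 to 0.31, Scgb3a2 from -0.46 to 0.008, Bpifa1 from -0.99 to 1.04, Aldh1a1 from -0.35 to 0.055, Muc5b from -0.25 to 0.47 and Muc5ac from -0.047 to 0.57. The log2 ratios that turned were Scgb3a1 to Scgb1a1 in Model against Control (-1.03 to 0.40) and HBG against Control (-0.041 to 1.04), Scgb3a2 to Scgb1a1 in HBG against Model (-0.28 to 0.31), Bpifa1 to Scgb1a1 in Model against Control (-1.51 to 0.71), HBG against Model (-0.95 to 1.84) and HBG against Control (-1.36 to 1.43), and Scgb1a1 to ciliated markers in HBG against Model (-0.10 to 0.45). Scgb1a1 in Model against Control ranged from -0.97 to -0.69.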
